A study of Homo sapiens with 6 samples.

Results

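The collagen family was followed after androgen exposure of UMUC3-c31, whose name refers to UMUC3, an established line from a human bladder carcinoma. Members were all genes whose symbol consists of COL, a number, A and a number, each represented by its brightest probe set over the 6 arrays. This gave 43 collagen genes of 18129 genes tested. The R1881 group held 3 arrays from cells given 10 nM R1881, a synthetic androgen, for 24 h, and the vehicle group held 3 arrays from cells given ethanol for 24 h. Cells of both groups spent the preceding 24 h in charcoal-stripped serum, from which steroid hormones have been removed. The design text calls the 3 samples of each group biological replicates, and the origin of the c31 derivative is not described in the labels.

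Collagens are secreted or membrane-anchored proteins in which 3 chains wind into a triple helix. Fibrillar collagens form the tension-bearing cables of connective tissue, type IV collagens form the sheet-like network of basement membranes, and type VI collagens form beaded filaments near that sheet. FACIT collagens, short for fibril-associated collagens with interrupted triple helices, decorate fibrils. Multiplexins carry sugar chains and anchoring fibrils pin epithelium to stroma, while a further group of collagens spans the cell membrane. In the bladder the urothelium rests on a basement membrane rich in type IV collagen, and fibroblasts of the wall make most of the fibrillar collagen.

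Each value is a log2 intensity of 1 probe set on 1 array, normalized by the authors with RMA. A level of 4.99 was taken as background. It is the 90th percentile of the means of 423 olfactory receptor and keratin-associated protein genes, which such cells are not expected to use. Levels of different genes depend on probe affinity as well as RNA, so changes are taken within each gene. The background level comes from other genes and is only a rough guide to detection. A gene is said to rise or fall where the adjusted p of limma over all 18129 genes was under 0.05. Changes are given as the R1881 mean minus the vehicle mean on the log2 scale, ± the standard error (SE), and n = 3 arrays per group throughout.

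The groups separated along the first principal component of all genes (43.2% of the variance), with R1881 arrays at 9.41 to 10.2 and vehicle arrays at -14.0 to -7.24. On the second component vehicle replicate 1, at 11.04, lay far from vehicle replicates 2 and 3, at -8.21 and -6.99. Of 16 measured epithelial and urothelial markers 6 lay above background in a group (KRT7, KRT8, KRT18, UPK1A, GATA3 and FOXA1). UPK1A, GATA3 and FOXA1 were close to that level, with group means of 4.87 to 5.08. EPCAM, CDH1, KRT5 and UPK2 lay below it in both groups. KRT7 rose, with means of 5.83 in R1881 cells and 5.43 in vehicle cells (adjusted p = 0.0192), KRT18 fell, with 10.38 in R1881 cells and 10.75 in vehicle cells (adjusted p = 0.00830), and the other 14 did not pass. Over all genes tested 1.60% rose and 0.816% fell. Of 15 fibroblast markers 6 lay above background in a group (THY1, ACTA2, FBLN1, PI16, PDGFRB and TAGLN), none rose or fell, and DCN, LUM, PDGFRA and POSTN lay below background in both groups. THY1 had means of 8.37 in R1881 cells and 8.13 in vehicle cells (adjusted p = 0.179). The mean log2 level over the fibroblast list was 4.55 to 4.60 on R1881 arrays and 4.56 to 4.64 on vehicle arrays. Of 8 endothelial markers 3 lay above background in a group (TEK, VWF and TIE1) and 1 rose, beside 1.60% of all genes. That gene was TEK, with means of 5.0 in R1881 cells and 3.72 in vehicle cells, the largest change of the list. VWF and TIE1 did not pass, and the median change of the list was 0.05. The mean level of that list was 4.53 to 4.57 on R1881 arrays and 4.30 to 4.39 on vehicle arrays, PECAM1, CDH5, KDR and CLDN5 lay below background in both groups, and the part of these marker changes in the collagen values was not tested.

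With R1881, 3 of the 43 collagen genes rose, 1 fell and 39 did not pass the test. The genes that rose were COL4A6 and COL4A5, which encode partner chains of basement membrane collagen, and COL5A2, a chain of the fibrillar type V collagen that regulates fibril thickness. The gene that fell was COL13A1, a membrane-spanning collagen of cell-matrix adhesion sites. The changes of COL4A5, COL5A2 and COL13A1 were 0.31, 0.43 and -0.36 on the log2 scale, and that of COL4A6 was 0.73, from a vehicle mean below background. Over all genes tested 2.42% passed: 1.60% rose and 0.816% fell, so that the collagen shares were 6.98% and 2.33%, the second of them from a single gene. The median change of the family was -0.01, beside 0 over all genes, with 21 members higher by sign and 22 lower, where 49.8% of all genes were higher by sign.

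Only a minority of the family was detected above background in these cells, 14 of the 43 collagens, beside 11049 of the 18129 genes tested. In both groups 13 collagens lay above it, and COL4A6 passed through its R1881 arrays alone. The other 29 had means over all arrays of 2.52 to 4.90. Among them were the main fibrillar collagen genes COL1A1, COL1A2 and COL3A1, all 10 FACIT genes, and all 3 genes of the hexagonal network class, COL8A1, COL8A2 and COL10A1. None of the 29 rose or fell, and their changes ran from -0.29 (COL19A1) to 0.19 (COL6A6). COL11A2 was nearest to the background level from below, with a mean of 4.90, and COL4A6 from above, with 5.26.

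**Figure D1:**
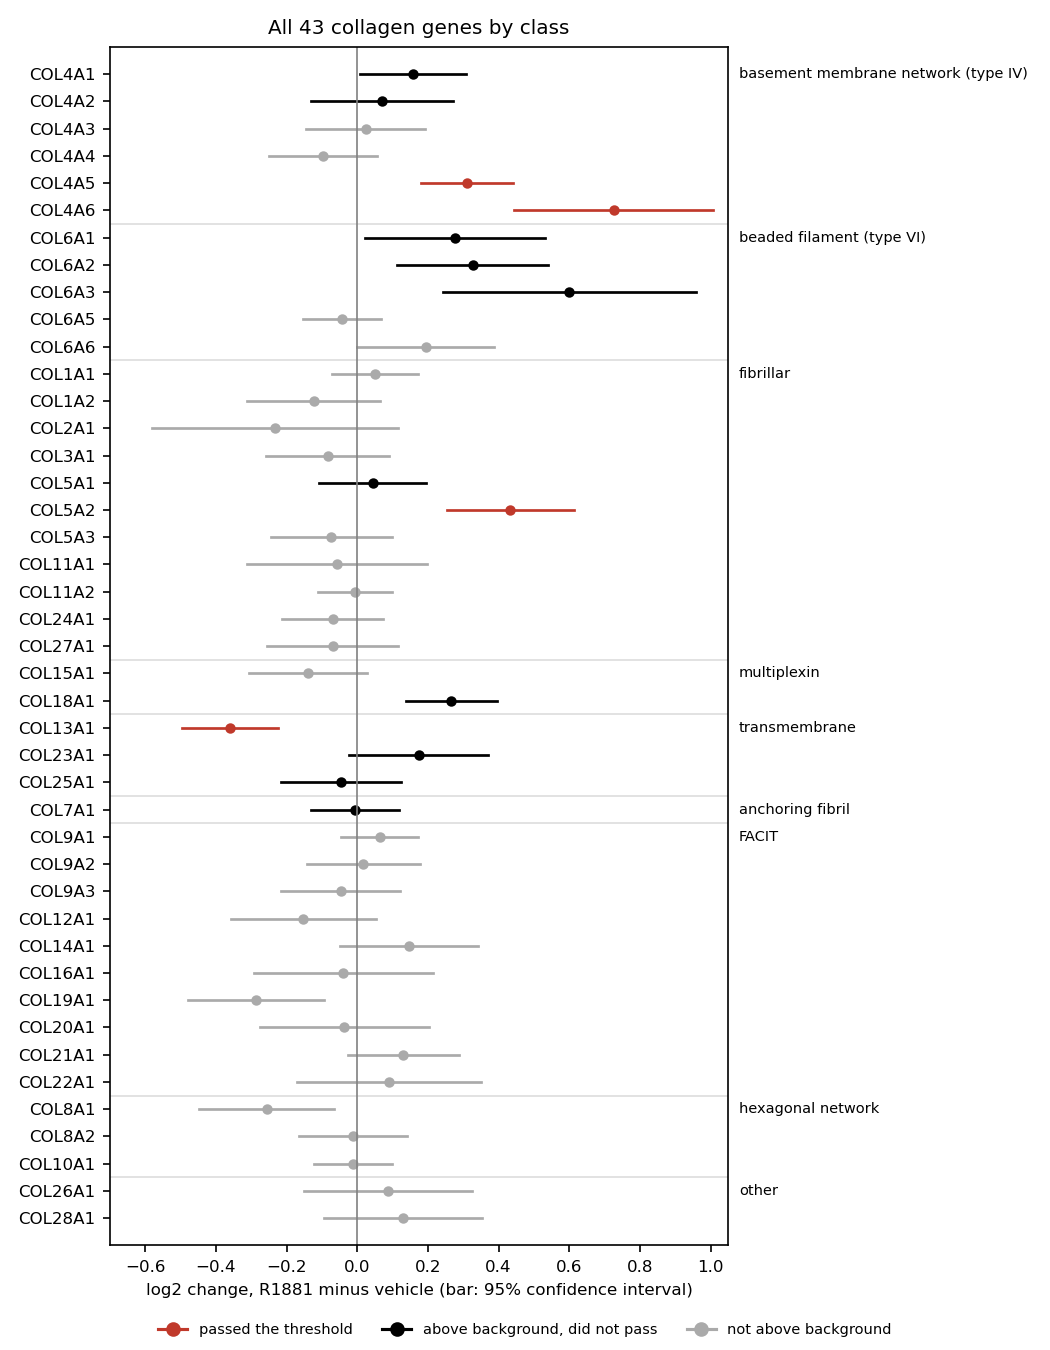
Change of each of the 43 collagen genes with R1881 (x axis, log2 of R1881 minus vehicle; bars, 95% confidence interval of the limma fit; rows, genes grouped by class). The 4 genes that passed the test are red, and COL4A6 lies farthest to the right at 0.73; the 29 genes in grey were not above background.

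The genes COL4A5 and COL4A6 lie next to each other on the X chromosome and are read in opposite directions from a common region, an arrangement also seen for COL4A1 and COL4A2 on chromosome 13 and for COL4A3 and COL4A4. The RefSeq promoter windows of these 4 genes and of COL13A1, each 250 bases before to 50 after an annotated start (build GRCh38.p14), are shown because the first pair holds both type IV genes that rose, the second holds type IV genes of the same layout that were above background and did not pass, and COL13A1 fell. Capitals mark, on either strand, the CCAAT box, the common form of the TATA box (TATAAA) and the hexamer written AGAACA. That hexamer is 1 arm of the palindromic element bound by the androgen receptor and related steroid receptors. The windows lie at chrX:108439409-108439708 on the minus strand for COL4A6, chrX:108439588-108439887 on the plus strand for COL4A5, chr13:110307108-110307407 on the minus strand for COL4A1, chr13:110307034-110307333 on the plus strand for COL4A2 and chr10:69801656-69801955 on the plus strand for COL13A1. COL4A6 has a second listed start, whose window is not shown.
COL4A6: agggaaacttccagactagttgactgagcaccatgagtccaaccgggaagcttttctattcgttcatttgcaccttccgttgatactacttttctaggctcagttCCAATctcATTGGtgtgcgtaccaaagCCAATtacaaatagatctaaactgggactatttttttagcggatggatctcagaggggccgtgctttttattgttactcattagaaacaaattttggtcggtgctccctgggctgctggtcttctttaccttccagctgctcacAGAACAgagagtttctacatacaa
COL4A5: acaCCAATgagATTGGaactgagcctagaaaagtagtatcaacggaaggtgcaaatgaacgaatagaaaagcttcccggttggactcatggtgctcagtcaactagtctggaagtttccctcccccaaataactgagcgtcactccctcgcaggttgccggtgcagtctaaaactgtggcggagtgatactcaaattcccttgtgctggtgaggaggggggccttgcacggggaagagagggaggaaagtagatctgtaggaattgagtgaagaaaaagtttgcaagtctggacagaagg
COL4A1: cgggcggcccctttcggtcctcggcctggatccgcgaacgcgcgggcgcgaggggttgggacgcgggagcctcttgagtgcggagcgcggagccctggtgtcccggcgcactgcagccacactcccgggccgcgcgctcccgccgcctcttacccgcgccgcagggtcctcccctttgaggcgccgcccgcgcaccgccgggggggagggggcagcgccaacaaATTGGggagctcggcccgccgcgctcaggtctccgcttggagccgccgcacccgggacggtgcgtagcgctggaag
COL4A2: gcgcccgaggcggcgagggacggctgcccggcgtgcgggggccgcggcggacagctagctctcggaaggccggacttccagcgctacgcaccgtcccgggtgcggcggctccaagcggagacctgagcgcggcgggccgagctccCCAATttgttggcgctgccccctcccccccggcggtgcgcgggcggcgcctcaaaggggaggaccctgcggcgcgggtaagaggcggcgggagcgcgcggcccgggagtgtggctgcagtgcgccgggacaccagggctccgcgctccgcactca
COL13A1: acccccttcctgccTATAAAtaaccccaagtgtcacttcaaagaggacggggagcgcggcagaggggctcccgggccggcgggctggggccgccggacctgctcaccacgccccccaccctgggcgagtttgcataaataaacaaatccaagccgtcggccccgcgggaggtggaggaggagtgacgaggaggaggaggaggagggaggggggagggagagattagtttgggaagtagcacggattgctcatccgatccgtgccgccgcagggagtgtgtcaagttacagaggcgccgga

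The windows of COL4A5 and COL4A6 overlapped by 121 bases and their annotated starts lay 380 bases apart. Those of COL4A1 and COL4A2 overlapped by 226 bases, with starts 127 bases apart, and those of COL4A3 and COL4A4, not shown, by 82 bases, with starts 419 bases apart. Both pairs held CCAAT, with 3 matches in the COL4A6 window, 2 in the COL4A5 window and 1 in each of the COL4A1 and COL4A2 windows, as did 34.6% of the 35116 windows of the RefSeq table. Windows of a pair share bases, and the COL4A5 matches are also COL4A6 matches, read on the other strand. The pairs differed in base composition: the COL4A6 and COL4A5 windows had 7 and 8 CG dinucleotides, the COL4A1 and COL4A2 windows 45 each, and the median of all windows was 14. AGAACA stood in the COL4A6 window, 26 bases past the annotated start, and in 14.8% of all windows. It stood in 11.6% of the 43 collagen windows, among them those of COL5A1, which did not rise or fall. The full androgen response element, AGAACA and TGTTCT spaced by 3 free bases, was found in none of the 43 windows listed for 31 of the 43 collagen genes, and in 1 window of the whole table. TATAAA stood in the COL13A1 window, 236 bases before the start, and in 11.5% of all windows. These matches describe the letters of short windows, and binding was not measured.

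COL4A6 showed the largest change of the family. It had log2 values of 5.75, 5.72 and 5.41 on the R1881 arrays, against 4.87, 5.09 and 4.74 on the vehicle arrays. All R1881 arrays lay above all vehicle arrays, and 2 of the 3 vehicle arrays were below the background level. The means were 5.63 ± 0.19 in R1881 cells and 4.90 ± 0.18 in vehicle cells (SD, n = 3 each), a change of 0.73 ± 0.12 (SE, adjusted p = 0.0279). Since the vehicle mean was below background, the R1881 mean was also set against the background level, and was 1.55 times that level. That level comes from probe sets of other genes, so 1.55 is a ratio of intensities only. Against the vehicle mean the gene was 1.65-fold higher, with a 95% confidence interval of 1.36 to 2.01.

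COL4A5, the chain that also pairs with COL4A3 and COL4A4 in kidney basement membrane, rose less. Its values were 7.32, 7.21 and 7.15 on the R1881 arrays and 6.93, 6.89 and 6.93 on the vehicle arrays. The groups did not overlap, and the vehicle arrays lay close together. The means of 7.23 ± 0.09 in R1881 cells and 6.92 ± 0.02 in vehicle cells (SD, n = 3 each) differed by 0.31 ± 0.05 (SE, adjusted p = 0.0373), or 1.24-fold with a 95% confidence interval of 1.13 to 1.36.

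COL4A1 and COL4A2 encode the chains of the common type IV collagen found in nearly every basement membrane. COL4A1 had 8.09, 8.16 and 8.07 on the R1881 arrays and 7.84, 7.96 and 8.05 on the vehicle arrays. The groups were separated by 0.02 at the closest, and the change of 0.16 ± 0.06 did not pass (adjusted p = 0.332). It was 0.10 without vehicle replicate 1 (adjusted p = 0.481) and 0.03 as the mean over its 3 probe sets. COL4A2 had 8.35 to 8.37 on the R1881 arrays and 8.10 to 8.43 on the vehicle arrays, which overlap, with a change of 0.07 ± 0.08 and a 95% confidence interval of -0.13 to 0.27 (adjusted p = 0.744). The change of COL4A2 was -0.03 without vehicle replicate 1, its lowest array. COL4A3 and COL4A4, the kidney-type chains, were below background. Of the 6 type IV genes 2 thus rose, none fell and 4 did not pass, beside 1.60% of all genes rising and 0.816% falling. Both rises were lost in most fits with 1 array left out.

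COL5A2 was the only 1 of 11 fibrillar genes to rise, beside 1.60% of all genes. It had 6.72, 6.75 and 6.52 on the R1881 arrays and 6.30, 6.25 and 6.14 on the vehicle arrays, with no overlap. The means were 6.66 ± 0.13 in R1881 cells and 6.23 ± 0.08 in vehicle cells (SD, n = 3 each), a change of 0.43 ± 0.08 (SE, adjusted p = 0.0361) or 1.35-fold. Its chain partner COL5A1 had 7.38 ± 0.07 in R1881 cells and 7.33 ± 0.09 in vehicle cells. Those groups overlapped, and the COL5A1 change of 0.04 had a 95% confidence interval of -0.11 to 0.20. The remaining 9 fibrillar genes, COL5A3 among them, were not above background. Of the 11 genes 3 were higher by sign and 8 lower, with a median of -0.07.

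COL13A1 had 7.59, 7.71 and 7.77 on the R1881 arrays, against 8.06, 8.01 and 8.08 on the vehicle arrays. Every R1881 array was lower than every vehicle array. The means were 7.69 ± 0.09 in R1881 cells and 8.05 ± 0.04 in vehicle cells (SD, n = 3 each), and the gene fell by 0.36 on the log2 scale (SE 0.06, adjusted p = 0.0254), to 0.779 times the vehicle level. The other membrane-spanning collagens that were measured did not pass. COL17A1, also of this class, was not among the genes tested. COL23A1 had 7.06 ± 0.02 in R1881 cells and 6.88 ± 0.17 in vehicle cells, a change of 0.17 ± 0.08 (adjusted p = 0.407) that was 0.08 without vehicle replicate 1. COL25A1, first described as a component of amyloid plaques, had 5.85 ± 0.09 in R1881 cells and 5.90 ± 0.11 in vehicle cells. Of its 4 probe sets only this brightest 1 was above background, and the others had means over the 6 arrays of 2.465 to 3.07.

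The type VI chains COL6A1, COL6A2 and COL6A3 join into 1 molecule. On the brightest probe set of each, the R1881 arrays all lay above the vehicle arrays, but none passed the test. COL6A3 had 5.37, 5.80 and 5.72 on the R1881 arrays and 5.13, 5.21 and 4.75 on the vehicle arrays, a change of 0.60 ± 0.15 (adjusted p = 0.124). COL6A2 had 7.16, 7.08 and 7.18 on the R1881 arrays and 6.61, 6.95 and 6.88 on the vehicle arrays, a change of 0.33 ± 0.09 (adjusted p = 0.160). COL6A1 had 8.87, 9.07 and 8.99 on the R1881 arrays and 8.46, 8.82 and 8.82 on the vehicle arrays, a change of 0.28 ± 0.11 (adjusted p = 0.313).
For COL6A1 and COL6A2, vehicle replicate 1 was the lowest array by a clear margin. Without it the changes were 0.16 for COL6A1 and 0.23 for COL6A2, with adjusted p of 0.408 and 0.164, while COL6A3 stood at 0.65 (adjusted p = 0.233). The other type VI genes, COL6A5 and COL6A6, were below background.

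COL18A1, a multiplexin of basement membranes whose end fragment is endostatin, came close to the threshold. It had 6.95, 7.05 and 7.02 on the R1881 arrays and 6.66, 6.76 and 6.80 on the vehicle arrays, with no overlap. The change was 0.27 ± 0.05 (SE, adjusted p = 0.0640), or 1.20-fold with a 95% confidence interval of 1.10 to 1.32. COL7A1, the collagen of anchoring fibrils, had 5.76 ± 0.07 in R1881 cells and 5.76 ± 0.04 in vehicle cells. Its change of -0.01 had a 95% confidence interval of -0.13 to 0.12.

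**Figure D2:**
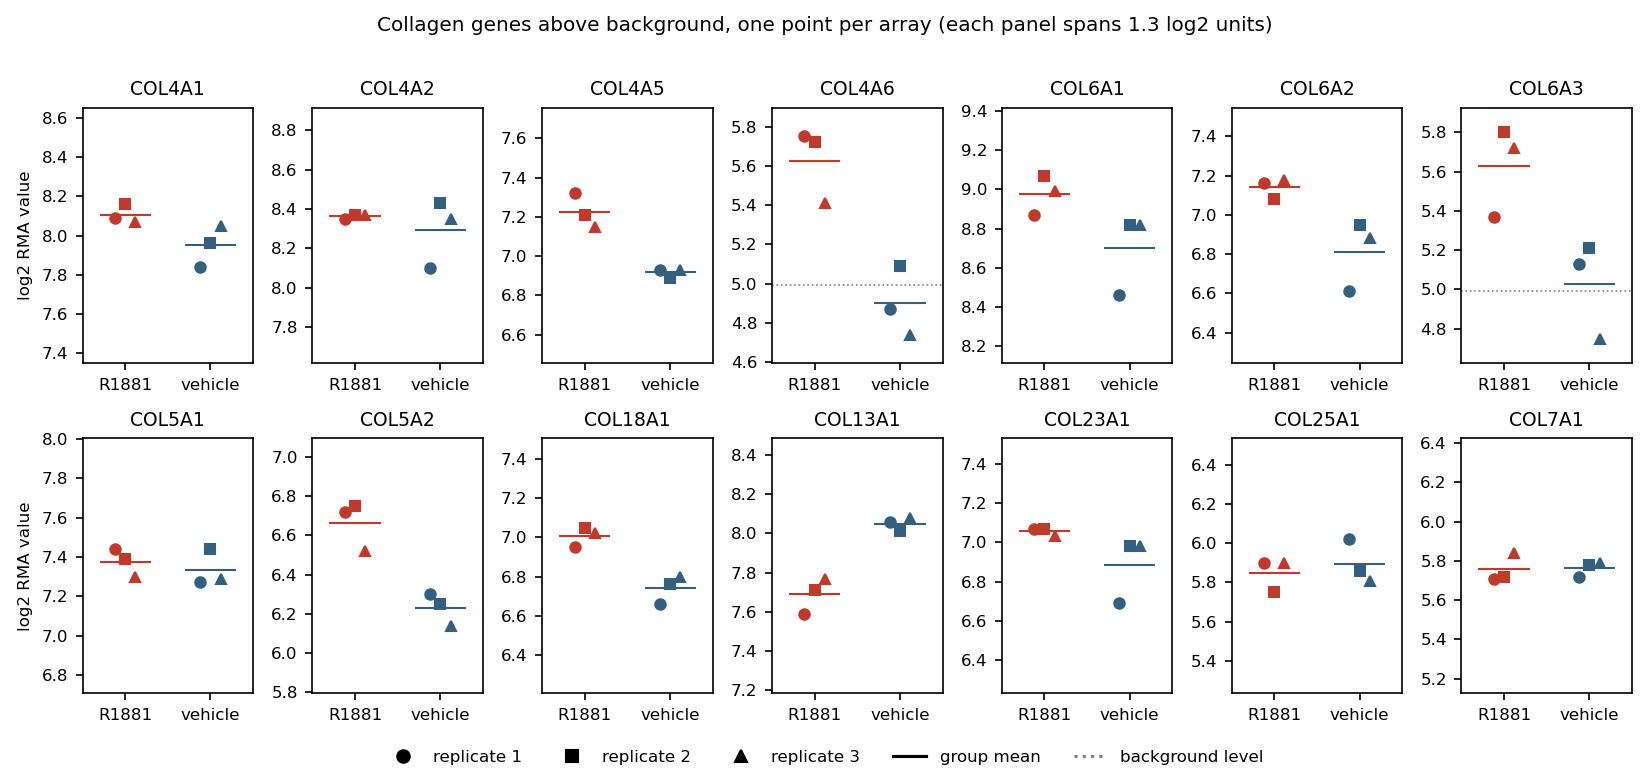
Log2 RMA values (y axis) of the 14 collagen genes above background, 1 point per array with R1881 left and vehicle right; lines are group means, symbols are replicate numbers and the dotted line is the background level. COL4A6, COL4A5 and COL5A2 are higher and COL13A1 lower on every R1881 array than on any vehicle array, and vehicle replicate 1 is the lowest array for COL6A1 and COL6A2.

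Across the family the groups did not overlap in 12 genes, with R1881 above vehicle in 9 and below in 3. These are 20.9% and 6.98% of the 43 genes, beside 8.53% and 9.93% of all genes tested. An unadjusted p under 0.05 was reached by 11 collagens, or 25.6%, beside 14.3% of all genes. Vehicle replicate 1 was the lowest vehicle array in 8 of the 13 collagens above background in both groups, or 61.5%, beside 36.4% of all genes above background in both groups. Its part in these counts was not tested.

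The 43 genes were covered by 121 probe sets, and 29 genes had more than 1. With every probe set on the array tested, 5 collagen sets passed, 2 higher and 3 lower, which is 4.13% of the sets beside 1.54% of all 49193.
COL13A1 gave the most even picture: its 4 sets were all above background, all lower with R1881 (by -0.22 to -0.38) and 3 of them passed. COL18A1 was higher on both its sets, by 0.27 and 0.44, and neither passed. For type VI, changes ran from -0.07 to 0.36 over the 6 COL6A1 sets and from 0.01 to 0.33 over the 4 COL6A2 sets. They ran from 0 to 0.60 over the 3 COL6A3 sets, and none of these type VI sets passed. Among those above background, the groups overlapped on COL6A1 sets at 0.09 and -0.07 and on a COL6A2 set at 0.05. For COL4A5 the second set rose by 0.47 ± 0.06 (adjusted p = 0.0166 over all probe sets), more than the brightest set, which had an adjusted p of 0.0581 there. The remaining COL4A5 set, far below background, stood at -0.11.
For COL4A6 only the brightest set passed, with an adjusted p of 0.0361 over all probe sets, and 6 of its 7 sets were higher by sign. A second COL4A6 set above background had means of 5.23 in R1881 cells and 5.09 in vehicle cells, a change of 0.14 that did not pass (adjusted p = 0.645). None of the 6 COL5A2 sets passed there, the brightest having an adjusted p of 0.0504. The other 5 were below background, with changes of -0.13 to 0.28. The next brightest of them had 4.52, 4.65 and 4.38 on the R1881 arrays and 4.23, 4.31 and 4.16 on the vehicle arrays, higher without overlap (adjusted p = 0.198). The brightest sets of COL4A5, COL5A2 and COL6A1 are of the kind marked s, whose probes match several transcripts, so that signal of relatives can mix there. With the mean over all sets of a gene as its value, the change was 0.18 for COL4A6 (adjusted p = 0.181) and 0.13 for COL5A2 (adjusted p = 0.253).

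**Figure D3:**
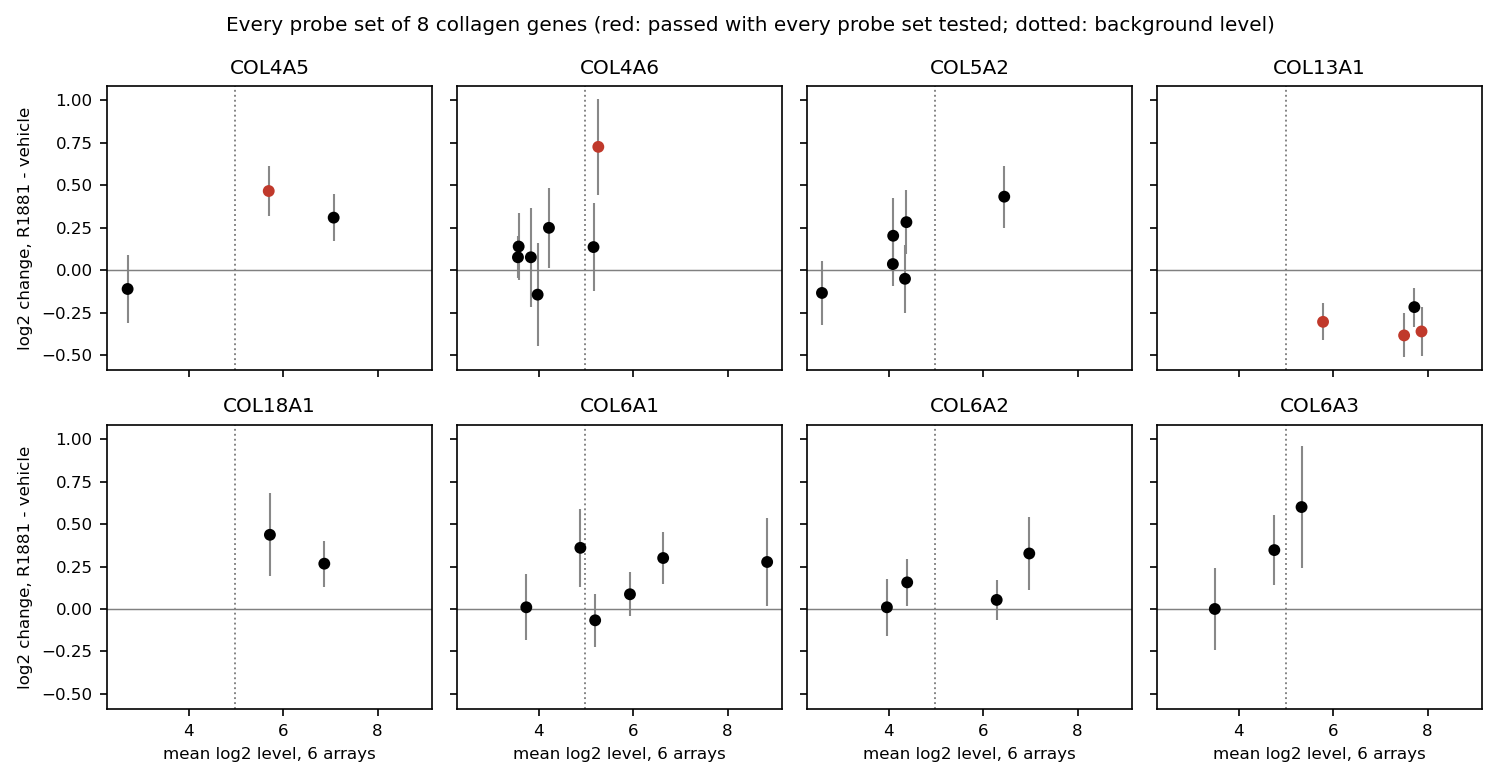
Change with R1881 (y axis, log2 of R1881 minus vehicle; bars, 95% confidence interval) against mean log2 level over the 6 arrays (x axis) for every probe set of 8 collagen genes; the dotted line is the background level and red sets passed with every probe set tested. All 4 COL13A1 sets lie below 0, while only the brightest of the 7 COL4A6 sets reaches 0.73.

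Each of the 4 calls was close to the threshold and lost in most fits with 1 array fewer, where the number of genes called in the whole table was 209 to 270, against 438 with all arrays. COL4A6 passed without R1881 replicate 3 (adjusted p = 0.0337) or vehicle replicate 2 (0.0416), and had 0.130 without R1881 replicate 1, 0.136 without R1881 replicate 2, 0.130 without vehicle replicate 1 and 0.111 without vehicle replicate 3. COL5A2 and COL13A1 passed only without R1881 replicate 3 (0.0315 and 0.0490), with adjusted p of 0.0896 to 0.149 and 0.0641 to 0.120 in the other 5 fits. COL4A5 passed in none of the 6 (0.0605 to 0.140). The sizes moved little, with changes of 0.65 to 0.84 for COL4A6, 0.26 to 0.35 for COL4A5, 0.39 to 0.51 for COL5A2 and -0.40 to -0.31 for COL13A1. No collagen passed without vehicle replicate 1, the array that stood apart, and none passed without R1881 replicate 1, R1881 replicate 2 or vehicle replicate 3.

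**Figure D4:**
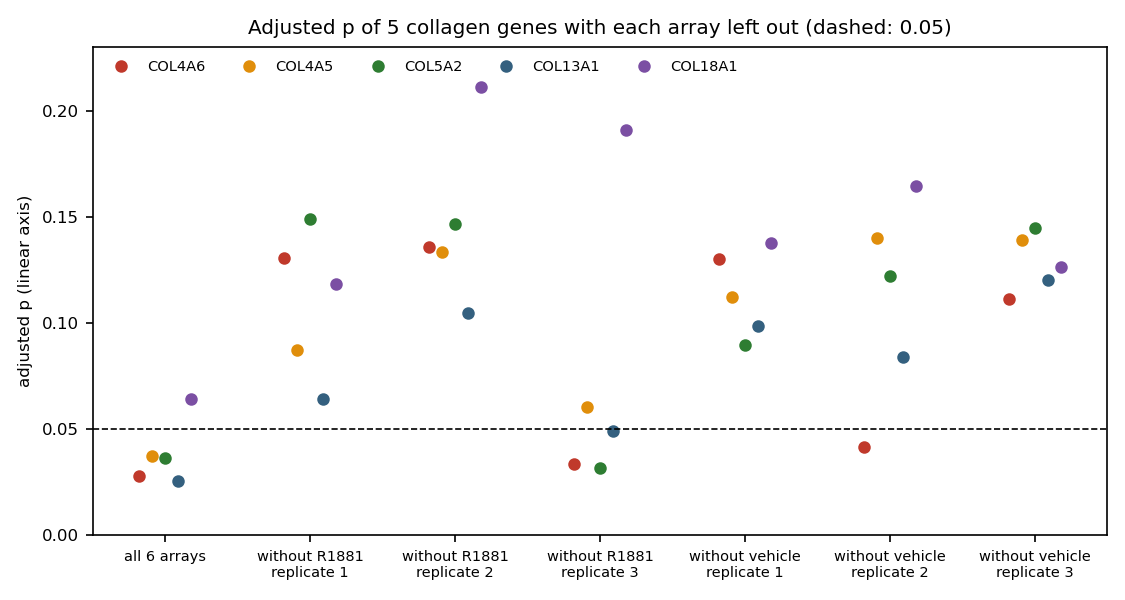
Adjusted p (y axis) of COL4A6, COL4A5, COL5A2, COL13A1 and COL18A1 with all 6 arrays and with each array left out (x axis); the dashed line is the threshold of 0.05. COL4A6 stays under the line without R1881 replicate 3 or vehicle replicate 2, and COL4A5 lies above it in all 6 leave-outs.

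Collagen chains are hydroxylated and folded in the endoplasmic reticulum before export. Among the 22 genes of this step that were measured, 3 rose and none fell, 19 not passing, beside 1.60% rising and 0.816% falling over all genes. The list median was 0.08 beside 0 over all genes. P4HA3, a catalytic subunit of the prolyl hydroxylase that stabilises the triple helix, had 8.29, 8.29 and 8.22 on the R1881 arrays and 7.03, 7.12 and 6.86 on the vehicle arrays. It rose by 1.26 ± 0.07 (SE, adjusted p = 2.97e-04), or 2.40-fold, more than any collagen. P4HA2, a second such subunit, had 10.57, 10.60 and 10.52 on the R1881 arrays against 10.15, 10.16 and 10.10 on the vehicle arrays, a rise of 0.43 ± 0.04 (adjusted p = 0.00429).
PLOD2, the lysyl hydroxylase that prepares telopeptides for stable cross-links, had 12.45, 12.46 and 12.39 on the R1881 arrays and 12.12, 11.97 and 12.04 on the vehicle arrays. It rose by 0.39 ± 0.05 (adjusted p = 0.0126), and its 4 probe sets were higher by 0.30 to 0.56. PLOD1, a related lysyl hydroxylase, had a change of 0.26 ± 0.05 that did not pass (adjusted p = 0.0560). P4HA3 and P4HA2 passed in all 6 fits with 1 array left out. PLOD2 passed in 2 of them, with an adjusted p of up to 0.0754.

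Outside the cell procollagen is trimmed and cross-linked, and of 16 measured genes of this step 1 rose, none fell and 15 did not pass (median 0.03). With 1.60% of all genes rising, a single gene of a list this short is no result about the list, and the same holds for the single calls in the lists that follow. LOXL2, a lysyl oxidase that cross-links collagen, with type IV among its substrates, had 10.80, 10.87 and 10.76 on the R1881 arrays and 10.29, 10.41 and 10.33 on the vehicle arrays. It rose by 0.47 ± 0.05 (SE, adjusted p = 0.00578), or 1.38-fold, passed in all 6 leave-outs and was higher on each of its 4 probe sets by 0.31 to 0.47. The transglutaminase gene TGM2 stood at 0.21 ± 0.07 and BMP1, the procollagen C-proteinase, at 0.23 ± 0.08, with adjusted p of 0.209 and 0.255. TLL1, a relative of BMP1, was below background.

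Of 12 collagen receptors none rose, 1 fell and 11 did not pass (median 0.03), beside 0.816% of all genes falling. ADGRG1, an adhesion receptor that binds collagen III, had 7.80, 7.91 and 7.95 on the R1881 arrays and 8.48, 8.51 and 8.57 on the vehicle arrays. It fell by 0.63 on the log2 scale (SE 0.06, adjusted p = 0.00195), on its brightest set alone: its 2 other sets had changes of 0.01 and 0.00. The integrin gene ITGA2, a collagen-binding subunit, stood at 0.26 ± 0.09 (adjusted p = 0.249), and LAIR1 and ITGA11 were below background.

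Of 15 proteases that cut collagen or its fragments none rose, 1 fell and 14 did not pass (median -0.07), again beside 0.816% of all genes falling. MMP16, a membrane-type metalloproteinase, had 6.86, 6.96 and 6.87 on the R1881 arrays and 7.32, 7.15 and 7.20 on the vehicle arrays, and fell by 0.33 (SE 0.06, adjusted p = 0.0415). It passed in none of the 6 leave-outs (0.0792 to 0.155). With every probe set tested, none of the MMP16 sets passed, the brightest having an adjusted p of 0.0626. Its other sets had changes of -0.24 to -0.13, except the dimmest at 0.09. The gelatinase gene MMP9 stood at 0.32 ± 0.09 and the cathepsin gene CTSL at -0.19 ± 0.05, with adjusted p of 0.167 and 0.127. The interstitial collagenase gene MMP1 was below background in both groups. Of the 12 small leucine-rich proteoglycans, which coat fibrils, none rose or fell and 2 were above background in a group. KERA, CHAD, OPTC and EPYC, those with the smallest p, were all below it.

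Among 21 regulators of collagen transcripts 1 rose, none fell and 20 did not pass (median -0.01), beside 1.60% of all genes rising. TGFBR2, the receptor subunit that binds TGF-beta, a known inducer of collagen genes, had 10.93, 10.94 and 10.80 on the R1881 arrays and 10.57, 10.58 and 10.49 on the vehicle arrays. It rose by 0.34 ± 0.06 (SE, adjusted p = 0.0270), and passed in 1 of the 6 leave-outs. A dimmer TGFBR2 set had a change of 0.25 that did not pass with every probe set tested (adjusted p = 0.123). TGFBR1 and CCN2, a matrix protein induced by TGF-beta, stood at 0.19 ± 0.05 and 0.17 ± 0.05, and RFX5, a factor that represses collagen transcription, at 0.13 ± 0.05, with adjusted p of 0.134, 0.182 and 0.267.

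**Figure D5:**
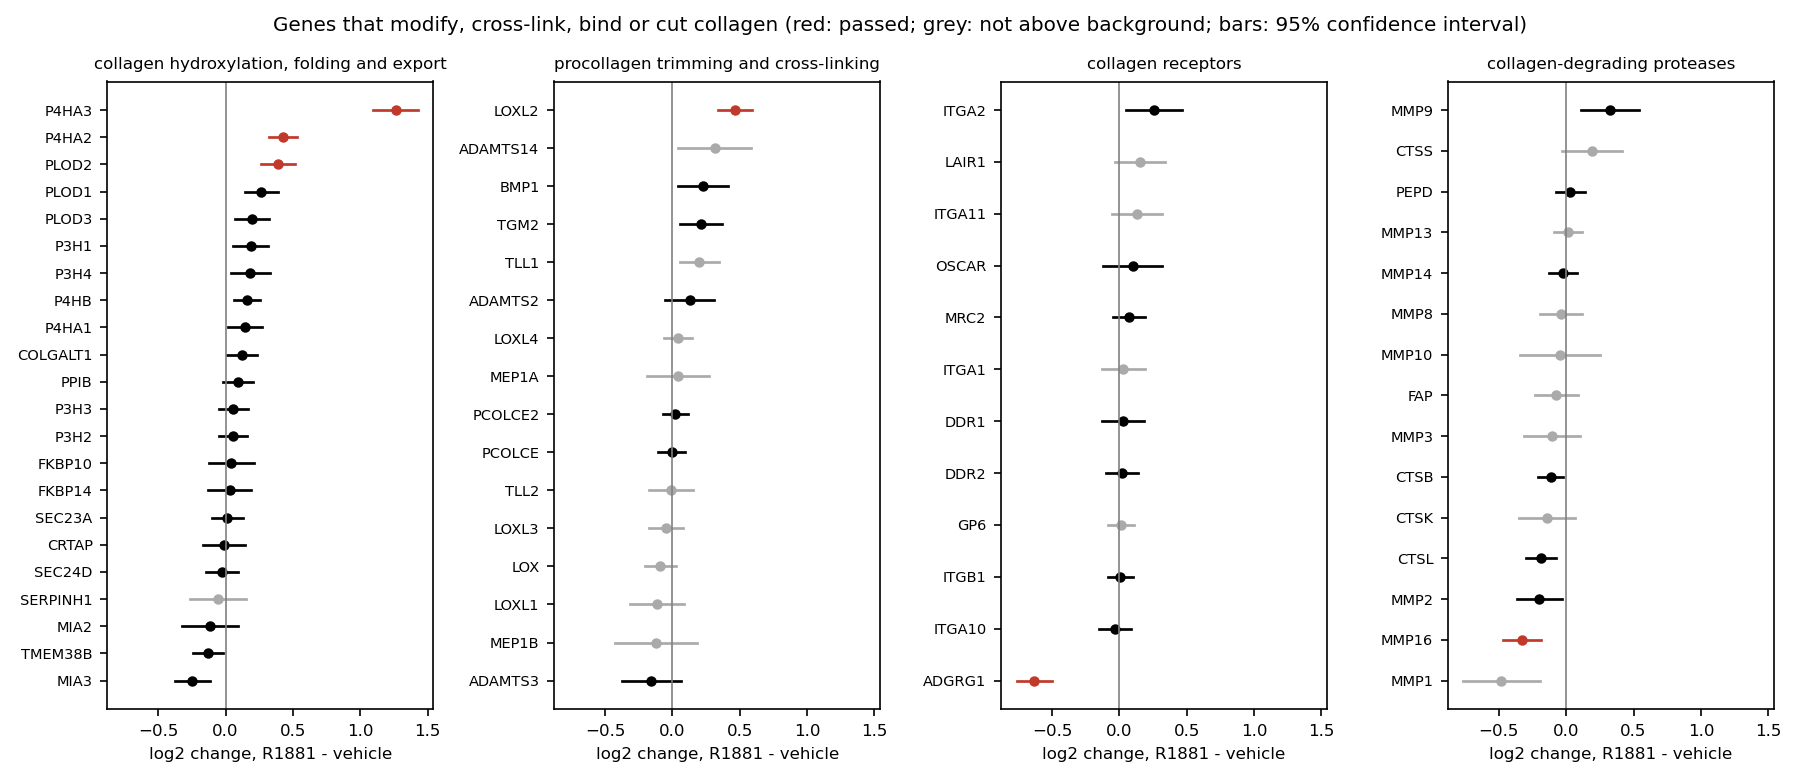
Change with R1881 (x axis, log2 of R1881 minus vehicle; bars, 95% confidence interval) of the measured genes that fold, cross-link, bind or cut collagen; red genes passed the test and grey genes were not above background. P4HA3 stands apart at 1.26, followed by LOXL2 at 0.47, P4HA2 at 0.43 and PLOD2 at 0.39, while ADGRG1 lies at -0.63.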

How the data were processed

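The authors deposited a log2 value for each probe set and array. The submitters' processing notes name RMA, a method that forces the arrays to a common distribution, so that a shift shared by most genes would be lost. No version or filter is named there. Array medians were 5.49 to 5.51. Precision is limited by 3 arrays per group.

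Of 49193 probe sets, 44898 had 1 gene symbol in the platform annotation and were used, 1825 had several and 2470 had none. No set with several symbols names a collagen. The Entrez identifiers of 44871 sets were found in the RefSeq gene table, and 0 symbols changed. R1881 was compared with vehicle by limma 3.58.1 in R 4.3.3 (lmFit, eBayes, no trend, no filter, no block), with two-sided p-values adjusted by the Benjamini-Hochberg method and a threshold of 0.05. The script was tested on simulated data. An exact permutation test of 3 against 3 arrays cannot go below p = 0.10 and was not used.

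Collagen classes and the lists of partner genes came from general knowledge. Members and lists were chosen with earlier results of these data known. Named genes were collagens above background, called list members and up to 4 members of each list with the smallest p. Lists are described by counts and medians. As alternatives, each array was left out in turn, the arrays were centred or quantile-normalized again, dim genes were dropped, the prior was made trended and robust, arrays were weighted, the replicate number was a block, and the probe sets of a gene were averaged or all tested. Any pair of arrays shared at most 9.02% of its values.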

Additional observations from a re-analysis of the deposited data

How the results depend on the processing

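The collagen genes higher with R1881 numbered 3, and remained COL4A5, COL4A6 and COL5A2 after re-centring, a second quantile normalization or array weights. Averaging a gene's probe sets gave 2, COL4A5 and COL18A1. A filter on dim genes gave 4 and a trended, robust prior 5, both with COL18A1 and the prior also with COL6A3. Testing every probe set left 1, COL4A6, and leaving out 1 array gave 0 to 2. COL13A1 was the 1 gene lower, and the count was 0 to 1 with 1 array left out. All genes changed numbered 438, with 757 after the dim filter, 895 under the trended prior and 209 to 270 with 1 array left out. Collagen probe sets called numbered 5, with 10 after the dim filter, 8 under the trended prior and 0 to 2 with 1 array left out. Partner genes called numbered 8, with 16 under the trended prior and 5 to 7 with 1 array left out. The dim filter tests fewer genes and the leave-outs use fewer arrays; for the other settings the cause was not tested. Among the 14 collagens above background, signs turned in leave-outs alone, in 3 genes that did not pass: COL4A2 ran from -0.027 to 0.14, COL7A1 from -0.048 to 0.017 and COL25A1 from -0.09 to 0.015. Some of the 29 dimmer collagens turned too, also with array weights (COL10A1, COL11A1), a second quantile normalization (COL9A2) or averaged probe sets. With the replicate block, 2 collagens were higher (COL4A6 and COL5A2), 0 lower, 222 genes, 1 collagen probe set and 5 partner genes were called. Deviations from the group means correlated at 0.09, 0.06 and 0.03 for replicates 1, 2 and 3. These correlations were small, although each array correlated best with its own number. Whether the numbers pair the samples was not tested in another way.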

Other observations

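Proteins with a collagen-like domain outside the family gave 1 rise, no fall and 23 that did not pass among 24 measured genes, beside 1.60% of all genes rising. C1QTNF6, a secreted relative of complement C1q, had 6.44, 6.40 and 6.42 on the R1881 arrays and 5.90, 6.05 and 5.89 on the vehicle arrays, a rise of 0.47 ± 0.06 (SE, adjusted p = 0.00686). It passed in all 6 fits with 1 array left out (adjusted p of 0.0105 to 0.0464) and has 1 probe set. ADIPOQ, the gene of the hormone adiponectin, stood at -0.18 ± 0.05 (adjusted p = 0.175), near the background level, and GLDN and MARCO were below it.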
